A study of Homo sapiens with 6 samples.

Results

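Expression of 8 MHC class I genes was examined in U2OS cells, a line from a human osteosarcoma, with and without a knockout of MBTD1. The members are the rows whose gene symbol is HLA-B, HLA-C, HLA-E, HLA-F, HLA-G, B2M, TAP2 or TAPBP, chosen by name as heavy chains, light chain and peptide loading factors, and each symbol has 1 row among the 34694 rows of the array table. They do not cover every class I gene. Total RNA of 3 control clones and 3 MBTD1 knockout clones, made with CRISPR/Cas9, was hybridised to Illumina bead arrays (1 per clone), and all clones were grown untreated in medium with serum. The control titles read "control KO" and the descriptions call them clones, but the design mentions wild type, so how the controls were derived is not known. Knockout clones are numbered 1 to 3, as are controls, and each is 1 clone of 1 cell line. Separate culture or hybridisation of the clones is not recorded, and the p-values therefore cover only the spread among 6 arrays, which may be technical.

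MHC class I molecules show peptides from inside the cell to cytotoxic T cells. Among the heavy chains, HLA-B and HLA-C are classical, and HLA-E, HLA-F and HLA-G are non-classical. A heavy chain pairs with beta-2-microglobulin, the product of B2M, in the endoplasmic reticulum. There the peptide transporter, of which TAP2 is a subunit, delivers peptides cut by the proteasome, and tapasin, the product of TAPBP, holds the empty molecule next to the transporter until a peptide is bound. Many class I promoters hold an interferon-stimulated response element, a kappaB site, a cyclic-AMP-type element and an inverted CCAAT box, and the transcription of these genes is raised by interferons, NF-kB and the transactivator NLRC5.

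The promoters of 4 members are shown because they represent the heavy chain, light chain and loading genes discussed below: 2 members whose knockout values lay above every control (HLA-F and TAPBP) and 2 whose values overlapped (HLA-B and B2M). Each is the 250 bases before the gene's start in RefSeq (GRCh38.p14), read 5′ to 3′ on the gene's strand, at chr6:29723184-29723433 (plus strand) for HLA-F, chr6:33314079-33314328 (minus) for TAPBP, chr6:31357180-31357429 (minus) for HLA-B and chr15:44711267-44711516 (plus) for B2M. Capitals mark matches, on either strand, to the response element core (a pair of GAAA repeats 2 bases apart), to CCAAT, to TGACG and to the kappaB consensus.
HLA-F: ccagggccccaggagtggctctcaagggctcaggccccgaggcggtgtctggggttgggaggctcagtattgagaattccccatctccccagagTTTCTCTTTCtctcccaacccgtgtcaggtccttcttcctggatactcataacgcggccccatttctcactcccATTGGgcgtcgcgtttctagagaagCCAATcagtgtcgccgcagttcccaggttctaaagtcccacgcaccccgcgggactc
TAPBP: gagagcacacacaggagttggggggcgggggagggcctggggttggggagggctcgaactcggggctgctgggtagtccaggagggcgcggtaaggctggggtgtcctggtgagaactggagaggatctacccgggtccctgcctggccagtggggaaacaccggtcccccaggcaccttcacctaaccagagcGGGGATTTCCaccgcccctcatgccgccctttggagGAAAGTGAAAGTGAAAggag
HLA-B: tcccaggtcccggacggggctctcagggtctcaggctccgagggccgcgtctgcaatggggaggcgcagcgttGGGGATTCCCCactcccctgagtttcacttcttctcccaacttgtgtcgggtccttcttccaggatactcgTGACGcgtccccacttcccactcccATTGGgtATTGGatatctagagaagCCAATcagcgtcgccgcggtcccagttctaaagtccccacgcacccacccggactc
B2M: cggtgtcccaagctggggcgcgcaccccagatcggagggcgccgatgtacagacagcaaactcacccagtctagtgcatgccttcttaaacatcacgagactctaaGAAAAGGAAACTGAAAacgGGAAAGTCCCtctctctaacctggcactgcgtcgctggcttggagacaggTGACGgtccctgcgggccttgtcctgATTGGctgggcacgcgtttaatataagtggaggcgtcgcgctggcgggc
The GAAA pair occurred in 3.02% of 35116 upstream windows of this length, CCAAT in 32.0%, TGACG in 21.2% and the kappaB consensus in 5.21%. In the TAPBP and B2M windows 2 overlapping copies of the GAAA pair run together, HLA-F has 1 on the opposite strand, and the HLA-B window has none. In the HLA-B window overlapping matches to the kappaB consensus form 1 run, and the B2M window holds all 4 motifs. Windows were given for 7 of the 8 members, HLA-E being the exception. A match describes these letters and is not evidence that a factor binds.

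No MHC class I member passed the test for a difference between knockout and control clones, which does not show equal levels. Of the 8 members, 6 were above background often enough to be tested, and 0 of these 6 passed limma's test (Benjamini-Hochberg adjusted p under 0.05 over all 13145 rows tested), against 1.57% of all rows tested (1.2% higher in knockout clones and 0.373% lower). At an unadjusted p under 0.05 there were 2 members, HLA-F and TAPBP, both higher in knockout clones, where 20.4% of all rows reached that level, 10.1% higher and 10.3% lower. The values below are log2 intensities after background correction and quantile normalization, with knockout minus control differences on the same scale. An offset of 16 intensity units was added before the logarithm, which understates the differences of dim rows. At each member's own standard error, a difference of 0.58 for TAPBP to 0.77 for B2M would have been needed to pass.

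**Figure D1:**
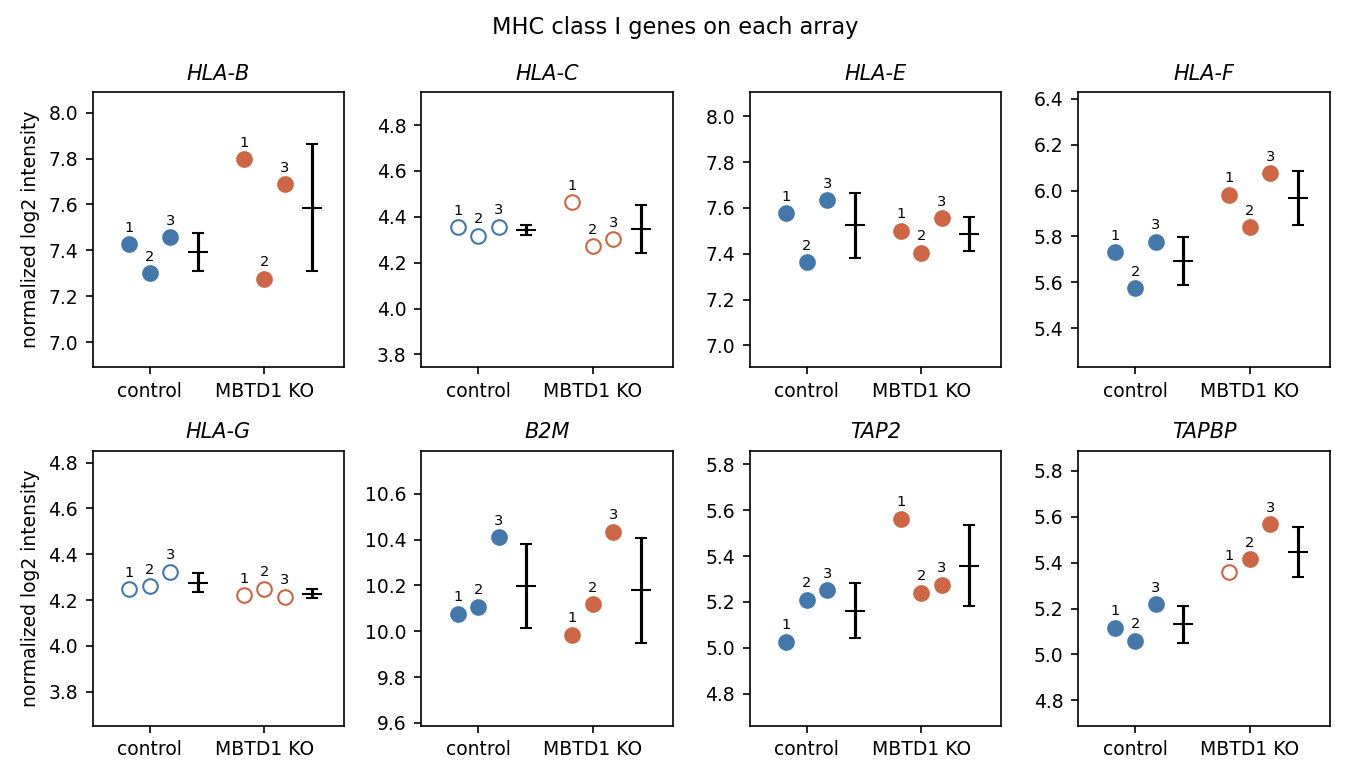
Normalized log2 intensity (y axis, each panel spanning the same range of log2 units) of the 8 MHC class I genes on each array, for 3 control clones (blue) and 3 MBTD1 knockout clones (orange), with clone numbers above the points; open points lie at or above a detection p of 0.05, and bars give mean and SD. HLA-F and TAPBP are the panels in which every knockout point lies above every control point, while HLA-C and HLA-G are open throughout.

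Among the classical heavy chains, HLA-B measured 7.43, 7.30 and 7.46 in control clones 1 to 3 and 7.80, 7.28 and 7.69 in knockout clones 1 to 3. Knockout clones 1 and 3 lay above all controls and knockout clone 2 below all of them, so the groups overlapped. The mean was 7.39 ± 0.08 (SD, n = 3) in controls and 7.59 ± 0.27 (n = 3) in the knockout group, which is a difference of 0.19 (standard error 0.15, 95% interval -0.15 to 0.54; limma adjusted p = 0.526; exact permutation p = 0.4, 2-sided, where 0.1 is the smallest possible with 3 against 3 arrays). The spread between knockout clones was 3.32 times that between controls. In intensity units, before correction, knockout clones 1 and 2 measured 296 and 228, a gap of 67.5 with a bead standard error of 18.4. Without knockout clone 2 the HLA-B difference was 0.35 (limma adjusted p = 0.216), and without knockout clone 1 it was 0.09.

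HLA-C, the other classical chain among the members, was not above background on any of the 6 arrays. Its intensity was 85.3 to 85.7 in the controls and 89.9, 85.0 and 86.0 in knockout clones 1 to 3, where the fitted background averaged 81.7 to 84.2 on the arrays. No fold was computed, and the row gives no evidence on how much HLA-C the cells make. Bead numbers were fractional, 23.5 in control clone 1, so several probes had been averaged into the row.

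HLA-E, which presents signal peptides of other class I chains to receptors on natural killer cells, did not separate the groups. It measured 7.58, 7.36 and 7.63 in the controls and 7.50, 7.41 and 7.55 in knockout clones. All 3 knockout values lay inside the range of the controls. The difference was -0.04 (standard error 0.12, 95% interval -0.31 to 0.24; limma adjusted p = 0.897; exact permutation p = 0.7). Its sign turned without normalization between arrays, at 0.01, without control clone 3, at 0.02, and without knockout clone 2, at 0.0035. The intensities of this row were close, 244 to 255 over the 6 arrays, with a bead standard error of 7.38 to 11.2 per array.

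HLA-F, a non-classical chain that can reach the surface without peptide, measured 5.73, 5.57 and 5.78 in the controls and 5.98, 5.84 and 6.08 in knockout clones. Every knockout clone lay above every control clone, as for 12.2% of all rows tested. Over all rows 13.7% had every knockout clone below every control, which gives 25.9% without overlap. The mean went from 5.69 ± 0.11 (SD, n = 3) to 5.97 ± 0.12 (n = 3), a difference of 0.27 (1.21-fold; standard error 0.12, 95% interval 0.002 to 0.54), which did not pass (unadjusted p = 0.0489 and adjusted p = 0.242 in limma; exact permutation p = 0.1, the smallest possible). The gap between the lowest knockout and the highest control value was smaller than the gap of 0.16 between control clones 1 and 2. HLA-G, known for its expression in the placenta, was not above background on any array, at intensities of 83.1 to 84.6 in the controls and 83.3 to 84.4 in knockout clones.

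The rows of the heavy chains are uncertain in one respect. Class I heavy chain genes and their pseudogenes are near-identical over long stretches, the sources used here do not give the position of the probes, and signal from one gene can contribute to the row of another.

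B2M, the light chain shared by all class I molecules, measured 10.08, 10.11 and 10.41 in the controls and 9.99, 10.12 and 10.43 in knockout clones. The groups overlapped almost fully, and control clone 3 and knockout clone 3 were the high arrays of each group. The mean was 10.20 ± 0.18 (SD, n = 3) and 10.18 ± 0.23 (n = 3), a difference of -0.02 (standard error 0.15, 95% interval -0.37 to 0.33; limma adjusted p = 0.960; exact permutation p = 1). The direction for B2M depended on the scaling. The difference was 0.13 after cyclic loess, 0.25 after scaling to a common median and 0.28 without normalization between arrays, with 0.397 as the lowest adjusted p among these in limma. Uncorrected B2M intensities were 1077, 1078 and 1218 in the controls and 1215, 1267 and 1589 in knockout clones. Before normalization between arrays, the 349 other rows within 0.5 log2 units of the level of B2M had a median difference of 0.11. After quantile normalization their median was -0.17.

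The 2 peptide loading genes were slightly higher on average without passing the test. TAP2, a subunit of the peptide transporter, measured 5.03, 5.21 and 5.25 in the controls and 5.56, 5.24 and 5.27 in knockout clones. Knockout clone 1 was the highest array, and knockout clone 2 lay between control clones. The difference of 0.20 had a standard error of 0.13 and an interval from -0.10 to 0.50 (limma adjusted p = 0.448; exact permutation p = 0.2). Without knockout clone 1 the TAP2 difference was 0.09.

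TAPBP, which encodes tapasin, measured 5.12, 5.06 and 5.22 in the controls and 5.36, 5.42 and 5.57 in knockout clones. Every knockout clone lay above every control clone. The mean went from 5.13 ± 0.08 (SD, n = 3) to 5.45 ± 0.11 (n = 3), a difference of 0.32 (1.24-fold; standard error 0.11, 95% interval 0.05 to 0.58), the smallest p among the members, which did not pass (unadjusted p = 0.0232 and adjusted p = 0.171 in limma; exact permutation p = 0.1, the smallest possible). TAPBP is a dim row, with intensities of 99.1 to 102 in the controls and 108 to 115 in knockout clones, and its detection p in knockout clone 1 was 0.0887. Control clone 1 exceeded control clone 2 by 0.06 for TAPBP, and control clone 3, at 5.22, lay above both.

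**Figure D2:**
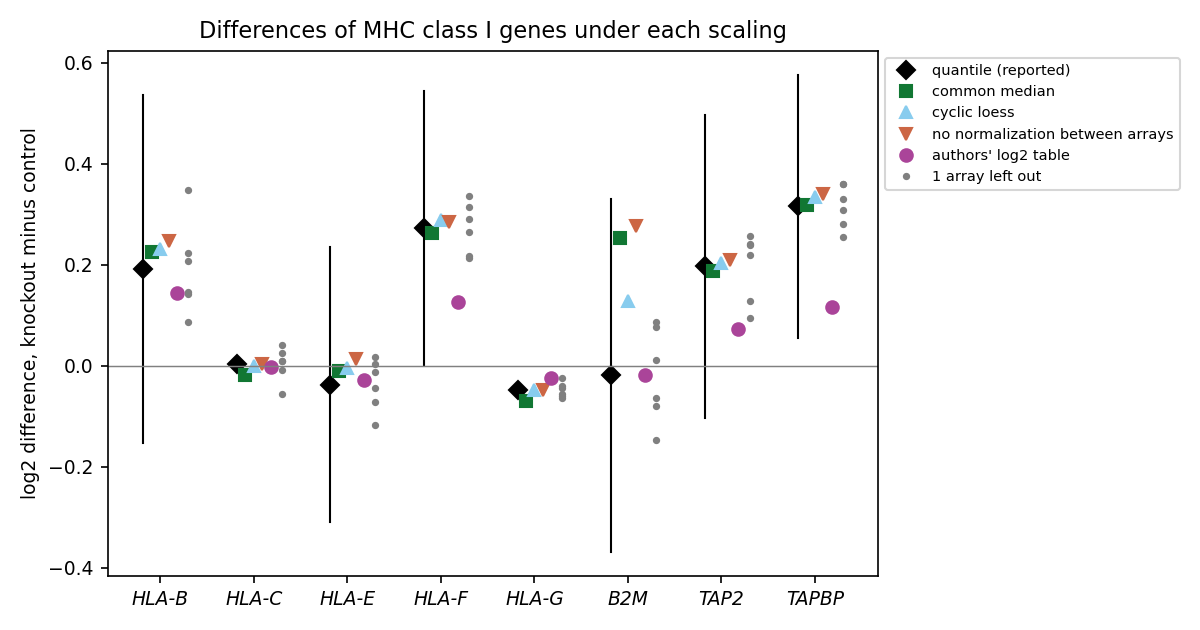
Log2 difference between knockout and control clones (y axis) for each MHC class I gene (x axis) under 4 ways of scaling the corrected arrays and in the authors' log2 table, with grey points for fits that leave out 1 array and lines for the 95% interval of the reported fit. HLA-B, HLA-F, TAP2 and TAPBP stay above 0 under every setting drawn, while B2M lies between -0.15 and 0.28.

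Over the 6 tested members the median difference was 0.19, against -0.02 over all 13145 rows tested, with 4 differences above 0 and 2 below. The groups did not overlap in 2 of the 6, both higher in knockout clones, where 12.2% of all rows did not overlap and were higher and 25.9% did not overlap in either direction. The median SD between clones was 0.11 in controls and 0.15 in knockout clones for the members, against 0.14 and 0.16 for all rows. Averaged over the 6 members, the log2 level was 6.82, 6.77 and 6.96 in the controls and 7.03, 6.88 and 7.10 in knockout clones. Knockout clones 1 and 3 were thus the highest arrays and control clone 2 the lowest, and knockout clone 2 lay below control clone 3. Knockout clone 3 held the highest value of 3 members and control clone 2 the lowest value of 3.

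The 5 rows whose values over the 6 arrays were most like this average were FAIM3, MCTS1, RNF24, CD99 and POLR3GL, with Pearson correlations of 0.986, 0.981, 0.975, 0.963 and 0.959, out of 5592 rows that spanned at least 0.5 log2 units. Each ordered the 6 arrays exactly as the class I average did. With 6 arrays and so many candidates this is a description of these arrays only.

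Other genes of antigen presentation were read from lists of named genes. Of 11 tested rows of peptide loading and trimming besides TAP2 and TAPBP, 1 rose, 0 fell and 10 did not pass. The 11 include the row named ERAP2, for which no test is read, as described below. The median difference was 0.10, and 1.57% of all rows tested passed. CALR, which encodes the chaperone calreticulin of the loading complex, rose 1.67-fold. It measured 8.10, 7.91 and 7.98 in the controls and 8.68, 8.75 and 8.79 in knockout clones, a difference of 0.74 (standard error 0.11; limma adjusted p = 0.0213). The groups were far apart relative to their spread, but the CALR call was lost when control clone 2 (adjusted p = 0.0652), control clone 3 (0.139), knockout clone 2 (0.0595) or knockout clone 3 (0.0831) was left out of the limma fit. It was also lost without a filter on dim rows (adjusted p = 0.0612) and with the default background fit (0.0767). GANAB, the catalytic subunit of glucosidase II, which trims the sugars of new glycoproteins, differed by 0.59 without passing (limma adjusted p = 0.0541). Among other settings, GANAB passed after scaling to a common median (limma adjusted p = 0.0448) and without control clone 1 (0.0350). It did not pass with the default background fit (limma adjusted p = 0.0907), in the authors' log2 table (0.0604) or without control clone 3 (0.208). ERAP2 encodes an aminopeptidase that trims peptides in the endoplasmic reticulum. The row under this symbol was not above background in any control clone and above it in all 3 knockout clones. It passed the filter on dim rows only through the knockout clones, so its values are given without a test, with a mean of 4.36 ± 0.05 (SD, n = 3) in the controls and 4.82 ± 0.18 (n = 3) in knockout clones. Another row, LRAP, carries an older symbol of ERAP2 and was above background on all 6 arrays. The LRAP mean was 9.98 in the controls and 10.02 in knockout clones, a difference of 0.03 (limma adjusted p = 0.909). Without the row named ERAP2 the median of the other 10 loading and trimming rows, LRAP among them, was 0.07.

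The immunoproteasome, the interferon-induced form of the proteasome that cuts peptides suited to class I, had 4 tested genes of 6 on the array. All 4 differences were above 0, 3 with groups that did not overlap, and 0 passed limma's test, with 3 at an unadjusted p under 0.05. Over all rows tested 12.2% did not overlap and were higher, and 20.4% had an unadjusted p under 0.05 (10.1% higher). PSMB8, a catalytic subunit, measured 6.01, 5.98 and 6.17 in the controls and 6.56, 6.62 and 6.91 in knockout clones. Its difference was 0.64 (standard error 0.13, limma adjusted p = 0.0520). PSMB8 passed after scaling to a common median (limma adjusted p = 0.0400) and after cyclic loess (0.0444). It also passed with detection p under 0.01 on all 6 arrays (0.0409) and without normalization between arrays (0.0305). It did not pass with the default background fit (limma adjusted p = 0.152), in the authors' log2 table (0.0782) or in any fit that left out 1 array. PSMB10, another catalytic subunit, differed by 0.67 (limma adjusted p = 0.105), with controls at 9.60, 8.77 and 9.11 and knockout clones between 9.82 and 9.85. PSME1, a subunit of the proteasome activator PA28, differed by 0.49 (limma adjusted p = 0.0933). Control clone 1 exceeded control clone 2 by 0.83 for PSMB10, 0.18 for PSME1 and 0.03 for PSMB8. For PSMB10 that gap was larger than the knockout difference of 0.67. This pair does not give the full spread of the controls, since control clone 3 was the highest control for PSMB8 and PSME1. The median of the 4 genes was 0.57 and went from 0.39 in the authors' log2 table to 0.64 without normalization between arrays.

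Regulators gave no call. Among 10 tested transcription regulators of class I genes 0 passed limma's test, 0 had an unadjusted p under 0.05, 3 differences were above 0 and 7 below, and the median was -0.10. After scaling to a common median 5 of these 10 differences were above 0. ATF1, a factor of cyclic-AMP-type elements, differed by -0.30, RFXANK, a subunit of the regulatory factor X complex, by 0.22, and RELA, a subunit of NF-kB, by -0.24 (limma adjusted p = 0.341, 0.370 and 0.392). NLRC5 was above background on 0 of 6 arrays and was not tested. Of 10 tested interferon receptor and JAK-STAT genes 0 passed limma's test, with 2 at an unadjusted p under 0.05 (20.4% over all rows). SOCS1, a feedback inhibitor of JAK signalling, measured 4.92, 4.85 and 5.08 in the controls and 5.30, 5.41 and 5.49 in knockout clones, a difference of 0.45 (limma adjusted p = 0.0842). IRF9, the DNA-binding subunit of the interferon-stimulated factor ISGF3, differed by 0.33 (limma adjusted p = 0.243), and JAK1, a kinase of interferon receptors, by -0.28 (0.277).

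Class I-like genes and ligands of natural killer receptors had 6 tested genes, of which 0 passed limma's test and 3 had an unadjusted p under 0.05 (20.4% over all rows). FCGRT, the heavy chain of the neonatal Fc receptor, which also pairs with B2M, differed by 0.51 (limma adjusted p = 0.156), with knockout clones at 5.09, 5.79 and 5.61 against 4.93 to 5.04 in controls. MICA, a ligand of the activating receptor NKG2D, differed by -0.33 (0.176 in limma), with every knockout clone below every control. HLA-H, a class I pseudogene whose row can share signal with its intact relatives, differed by 0.36 (0.192 in limma). Class II genes, which present outside peptides and are mostly confined to immune cells, had 5 tested genes of 15. Among them 0 passed limma's test and 0 had an unadjusted p under 0.05. HLA-DRB3, HLA-DRB4 and HLA-DRA, chains of class II molecules, differed by 0.17, 0.12 and 0.11 (adjusted p = 0.565, 0.611 and 0.673 in limma). HLA-DRB4 was above background in 1 of 3 control clones.

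**Figure D3:**
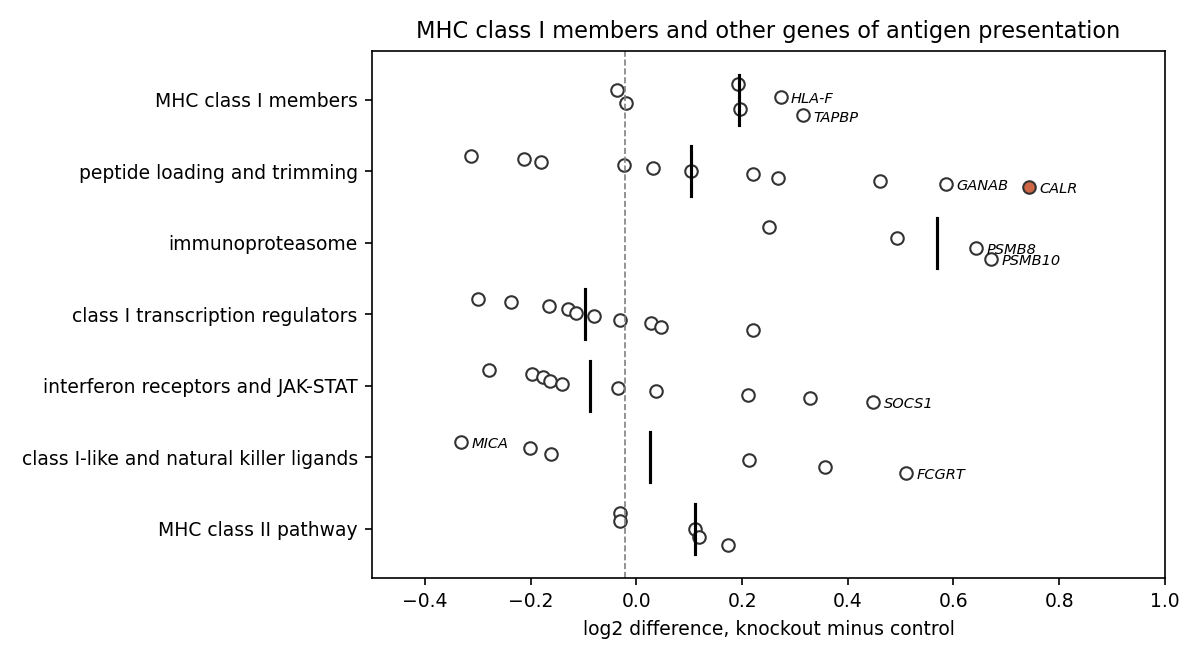
Log2 difference between knockout and control clones (x axis) for the 6 tested MHC class I members and for tested genes of 6 lists of antigen presentation (y axis); filled points passed the test, black bars are list medians, and the dashed line is the median of all rows tested. CALR is the only filled point, and the 4 immunoproteasome genes all lie to the right of the dashed line. The row named ERAP2, above background only in knockout clones, is among the points drawn.

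Between 12982 and 13511 genes per array were above background. Of 9 osteoblast lineage markers 5 (SPARC, COL1A1, ALPL, SPP1 and CDH11) were above background on all 6 arrays, BGLAP on 5, COL1A2 on none, and RUNX2 and SP7, defining factors of that lineage, on 1 each. Of 6 blood markers 3, PTPRC, CD3E and CD14, were above background on none, ITGAM on 1, LYZ on 4 and CD68 on all 6. The summed intensity of the 6 blood markers was 579 to 608 over the arrays, and of the 4 endothelial ones 321 to 347, with PECAM1, CDH5 and KDR above background on none and VWF on 3. Of 5 epithelial marker rows EPCAM was above background on all 6 arrays, and KRT19, KRT5 and CDH1 on none. TACSTD1, a row under an older symbol of EPCAM, was above it on 4. MBTD1 itself measured 5.06, 5.05 and 5.05 in the controls and 5.17, 4.99 and 4.62 in knockout clones (exact permutation p = 0.7). The sources used here do not place its probes relative to the edit, and the row therefore does not check the knockout.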

How the data were processed

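The authors deposited mean bead intensity per gene row, on a linear scale and not background-corrected, with a detection p-value, the bead standard error of the signal and the bead number, per the file headers. The deposited log2 table equalled a quantile normalization of log2 intensities to within 4.99e-09. Tools named in the submitters' processing notes are lumi and limma. Columns were matched to clones by sample number.

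Background was corrected with limma 3.58.1 (R 4.3.3) by the normexp model, fitted to detection p-values of the 27408 rows whose p was a whole multiple of 1 step of 770 negative controls on all 6 arrays (tolerance 0.001 of a step), with an offset of 16 and quantile normalization. This restriction to single-probe rows was adopted in an earlier analysis of these data after limma's default fit on all rows had called 0 genes (2260 at an unadjusted p under 0.05), so the calls are conditional on it. The default fit is kept as an alternative. The 92 spike-in rows were left out, and 13145 rows with a detection p under 0.05 on at least 3 arrays were tested with lmFit and eBayes, 2-sided, without covariates. The code was tested on simulated data. The number of arrays limits precision.

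Members and lists were chosen with earlier results of these data known. Named genes are all members, each list's calls and its 3 smallest p, and the 5 rows most like the members' average. LRAP is given beside ERAP2 because both symbols stand for the same gene. A blood marker of the planned list is not reported here.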

Additional observations from a re-analysis of the deposited data

How the results depend on the processing

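The count of MHC class I members past the threshold was 0 under all 15 alternatives. The setting with no normalization between arrays was chosen after seeing the data. The number of all rows past the threshold was 207 (158 higher, 49 lower) and moved with most settings. It was 0 with the default background fit (2260 at an unadjusted p under 0.05 in limma), 64 in the authors' log2 table, 61 with an offset of 50, 392 (344 higher, 48 lower) after scaling to a common median, 361 with the stricter filter (detection p under 0.01 on each of 6 arrays), 4 without a filter and 611 (575 higher, 36 lower) without normalization between arrays, and cyclic loess gave 288 (249 higher, 39 lower). Leaving out 1 array gave 0 to 578, with 0 without control clone 3 (1919 at an unadjusted p under 0.05 in limma), 578 without control clone 1, 50 without control clone 2 or knockout clone 2 and 51 without knockout clone 3. The causes were not tested.

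HLA-B, HLA-F, TAP2 and TAPBP kept a positive sign in 15 of 15 alternatives, at 0.09 to 0.35, 0.03 to 0.34, 0.01 to 0.26 and 0.02 to 0.36. The lowest values of the last 3 came with the default background fit, which compresses dim rows. The stricter filter, no filter and the fit with a replicate block use the reported values of all 6 arrays, so the sign could not change there. TAPBP was not tested under the stricter filter. B2M reversed to 0.25 with a common median, 0.13 with cyclic loess and 0.28 without normalization between arrays, and over arrays left out it ran from -0.15 to 0.087, at 0.087 without control clone 3, 0.08 without knockout clone 1 and 0.01 without knockout clone 2. HLA-E reversed to 0.013 without normalization between arrays and ran from -0.12 to 0.017 over arrays left out, at 0.017 without control clone 3 and 0.0035 without knockout clone 2. HLA-C ran from -0.06 to 0.04 and HLA-G from -0.06 to -0.03 over arrays left out, and HLA-G was -0.0034 with the default fit, but neither was above background.

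Clone numbers are shared between the groups. Same-numbered clones deviated from their group means with correlations of 0.07, 0.02 and 0.02 for numbers 1 to 3. The highest correlation of each control clone with a knockout clone of another number was -0.02, 0.004 and 0.06. With 3 arrays per group these values cannot decide whether the numbers pair the samples. With the clone number as a replicate block 122 rows (108 higher, 14 lower) and 0 members passed, and CALR had a limma adjusted p of 0.0578.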

Other observations

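Genes that lie on chromosome 6 between HLA-F and TAPBP, the stretch that holds 7 of the 8 members, were also read as a group, which was chosen after the lists had been fixed and is given without a test. Of 61 tested genes besides the members, 44 (72.1%) differed upwards in knockout clones, against 46.2% of all rows tested, and the median difference was 0.11 against -0.02. The share was 73.8% after cyclic loess, 77.0% after scaling to a common median and 80.3% without normalization between arrays. Over the same genes control clone 1 exceeded control clone 2 by a median of 0.03, by 0.06 after cyclic loess and by 0.11 after scaling to a common median. The median knockout difference under that last scaling was 0.15. Without normalization between arrays the median of control clone 1 minus control clone 2 was -0.09, beside a knockout difference of 0.17. Medians for the pairs with control clone 3 were not computed, so these values do not give the spread among the controls. In this stretch 1 of the 61 genes, HSD17B8, passed limma's test, beside 1.57% of all rows tested. HSD17B8, a steroid dehydrogenase of mitochondrial fatty acid synthesis, rose 1.97-fold (limma adjusted p = 0.0351). Its mean went from 5.47 ± 0.33 (SD, n = 3) to 6.45 ± 0.12 (n = 3). No row of the array passed with the default background fit or without control clone 3, so the HSD17B8 call was lost there. PSMB8, RPS18, a ribosomal protein, and PBX2, a homeobox factor, differed by 0.64, 0.94 and 0.54 without passing (limma adjusted p = 0.0520, 0.0558 and 0.0630). The 61 genes overlap the lists given above, with PSMB8 and MICA among the shared ones. Over all of chromosome 6 the median difference of 606 tested rows was -0.03.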
